A study of Mus musculus with 4 samples.

Results

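Cwc22, Naaladl2, Cdk14, Pik3c2g, Adm2, Rnf39, Atp1a4 and Elmo1 are 8 mouse genes that were chosen by their measured kidney signal, which changed by more than 2-fold in opposite directions with vancomycin at the 2 injection times. They were read with all 26 of their probes, out of 56605 probes on the array. Of 20759 gene entries well above background on all 4 arrays, 46 (0.222%) met the same rule. Among these, 21 were higher with vancomycin at ZT2 and lower at ZT14, and 25 had the other order. The 8 genes are some of the 26 that also carry an ordinary gene symbol, as opposed to a clone or predicted transcript name. The rule used both differences and their signs, so the changes below are a description and carry no test.

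Mice of the outbred ICR strain were injected with saline or with vancomycin. This glycopeptide antibiotic can damage the kidney when exposure is high. Injections were given at zeitgeber time 2 or 14 (ZT2 and ZT14), counted in hours after lights on, and kidneys were taken 1 day later. Each of the 4 groups (saline ZT2, vancomycin ZT2, saline ZT14, vancomycin ZT14) was measured on 1 single-colour array, so nothing here has a replicate. The labels give no age, sex, dose or genetic modification, and do not state if RNA came from 1 mouse or from pooled mice. Both ZT2 arrays lay on slide 1 and both ZT14 arrays on slide 2, so the slide cannot be told apart from the injection time. Saline held position 1.1 and vancomycin position 1.2 on each slide, so the position cannot be told apart from the treatment. The arrays had 60.6% to 64.7% of their spots well above background and 0 saturated spots. All 10 kidney markers looked for, among them Slc34a1, Umod and Aqp2, were well above background on all 4 arrays, with none past 2-fold at either time.

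The 8 genes do not belong to a single pathway. Cwc22 is a splicing factor that also helps to load the exon junction complex, which marks spliced messenger RNA. Adm2 encodes intermedin, a vasodilator peptide of the calcitonin family that acts through the receptor Calcrl with RAMP partners and is known in kidney and blood vessels. Pik3c2g encodes a class II phosphoinositide 3-kinase, Cdk14 a cyclin Y-dependent kinase of Wnt signalling, and Elmo1 a partner of DOCK proteins that activates Rac in cell migration and in the uptake of dying cells. Atp1a4 encodes the sodium pump catalytic subunit known from sperm, Naaladl2 a protein related to glutamate carboxypeptidase, and Rnf39 a RING finger protein encoded in the major histocompatibility complex region.

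Each probe is a 60-base oligonucleotide, and its position is given as the array files state it, in mouse build mm9. Exon positions were not assigned because no genome of that build was used here. The 2 Cwc22 probes below, placed at chr2:77734344-77734403 and chr2:77734227-77734286 on the minus strand, are shown because 2 sequences without a shared stretch read the same pattern. They are the probes of the array annotated to the RefSeq messenger RNA of Cwc22.
Cwc22 A_55_P1997429: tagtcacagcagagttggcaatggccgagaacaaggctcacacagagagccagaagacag
Cwc22 A_51_P327642: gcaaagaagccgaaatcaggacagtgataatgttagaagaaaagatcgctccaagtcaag

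The next pair, at chr6:139917709-139917768 and chr6:139917743-139917802 on the plus strand, is shown because the probes overlap. The capitals mark the 26 bases present in both, so these Pik3c2g probes are not independent measurements. The other Pik3c2g probe shown lies far upstream, at chr6:139570930-139570989.
Pik3c2g A_51_P191077: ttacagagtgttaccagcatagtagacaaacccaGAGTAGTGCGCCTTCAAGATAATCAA
Pik3c2g A_55_P1999953: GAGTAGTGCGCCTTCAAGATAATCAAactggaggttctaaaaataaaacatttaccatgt
Pik3c2g A_52_P564413: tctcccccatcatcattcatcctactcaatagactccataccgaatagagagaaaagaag

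Both Naaladl2 probes are shown because they went apart at ZT2. The moving probe lies at chr3:23703403-23703462 and the probe that stayed within 2-fold at chr3:24074352-24074411, both on the minus strand. Only the first 30 bases of the moving probe are given.
Naaladl2 A_52_P681557: agggagtctaatgtagacatggagacctga
Naaladl2 A_55_P2077920: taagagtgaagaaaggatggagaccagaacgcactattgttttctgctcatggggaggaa

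The last pair is from Elmo1. The moving probe, at chr13:20355789-20355848 on the plus strand, is annotated to an Ensembl transcript and is given by its first 30 bases. The probe A_52_P488572, annotated to a RefSeq messenger RNA of Elmo1, was well above background on 0 arrays.
Elmo1 A_55_P2716331: ttctcactagaactaatgaagaccagaaga
Elmo1 A_52_P488572: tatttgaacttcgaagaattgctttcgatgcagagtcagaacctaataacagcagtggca

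Signals below are scaled intensities, that is, processed signals brought to a common 75th percentile over the 4 arrays, on a linear scale. Differences are vancomycin minus saline on the log2 scale, where 1 equals 2-fold. The error beside a difference is the scanner software's own error for a single spot, which does not hold the spread between animals. Where several probes read a gene, its values are those of the brightest probe. Levels are compared between arrays for a single probe and never between probes. In RNA of whole kidney, fewer cells of a type and less RNA per cell cannot be told apart.

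**Figure D1:**
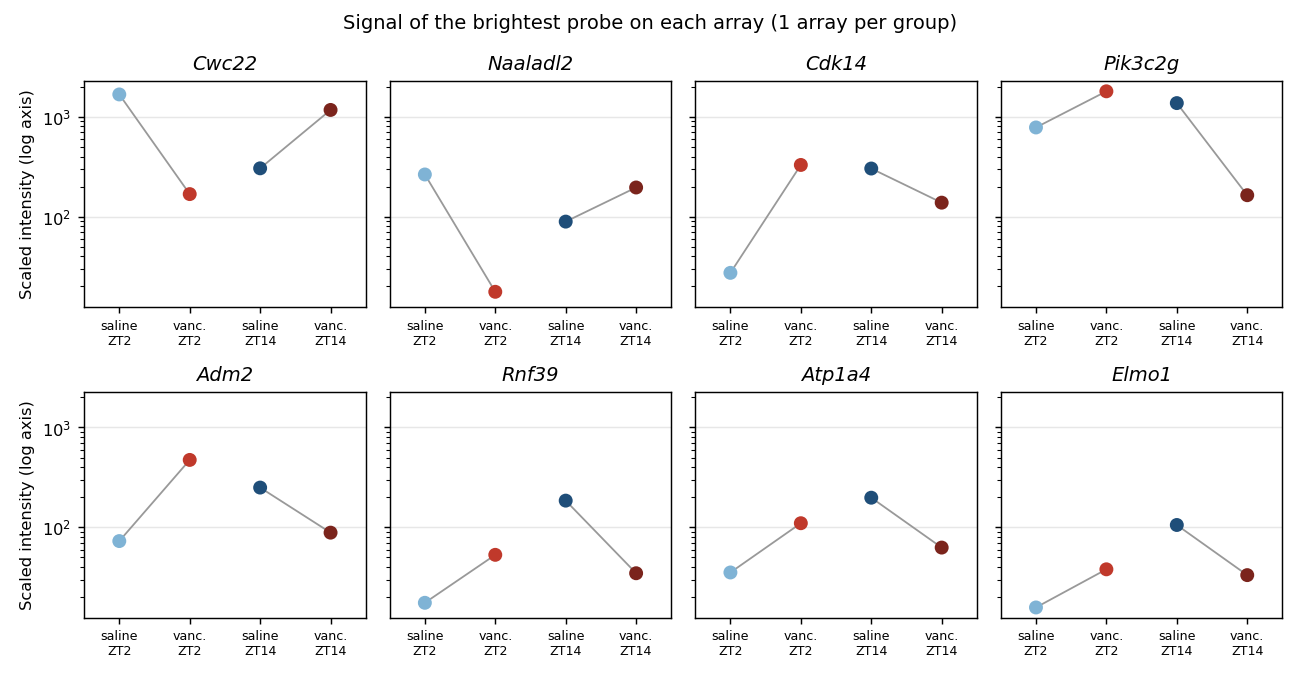
Scaled intensity (log axis) of the brightest probe of each of the 8 genes on each of the 4 arrays, 1 point per array, with a line joining saline to vancomycin at the same injection time. The lines of Cwc22 and Naaladl2 fall at ZT2 and climb at ZT14, and those of the other 6 genes do the opposite.

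Cwc22 had the largest difference between the changes at the 2 times. Its brightest probe read 1673 with saline and 168 with vancomycin at ZT2, and 305 with saline and 1170 with vancomycin at ZT14. The log2 difference was -3.31 ± 0.21 (scanner error) at ZT2, a 9.94-fold lower signal, and 1.94 ± 0.20 at ZT14, a 3.84-fold higher signal. No single array stood apart for Cwc22. The saline ZT2 and vancomycin ZT14 arrays were high, the other two were low, and the gap between the 2 pairs was 1.94. Saline mice thus differed between the times by -2.46 (ZT14 minus ZT2) and vancomycin mice by 2.80.

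All 5 Cwc22 probes had the same signs. The other probe of the RefSeq messenger RNA read 1588, 215, 259 and 807 in the order saline ZT2, vancomycin ZT2, saline ZT14 and vancomycin ZT14, with differences of -2.88 and 1.64. A probe annotated to a cDNA clone, at chr2:77760128-77760187, read 275, 41.0, 23.0 and 167, with differences of -2.75 and 2.85. The same 2 arrays were high for these 3 probes. Of the 2 probes of Ensembl transcripts, A_55_P1997424 was not well above background with vancomycin at ZT2, where its signal was at least 10.5-fold lower, and it differed by 0.97 at ZT14. The other, A_55_P2722318, was well above background on the saline ZT2 and vancomycin ZT14 arrays only, at least 4.33-fold lower with vancomycin at ZT2 and at least 2.99-fold higher at ZT14. These bounds set the dim array at its lowest signal that was well above background. Cwc22 is known to lie in a segment of mouse chromosome 2 whose copy number varies among mice, so its probes may read the sum of several copies. Copy number was not measured.

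Adm2 was higher with vancomycin at ZT2 and lower at ZT14. Its only probe, at chr15:89155040-89155099 on the plus strand, read 72.9 with saline and 473 with vancomycin at ZT2, and 250 with saline and 88.5 with vancomycin at ZT14. The difference was 2.70 ± 0.21 at ZT2 (6.49-fold higher) and -1.499 ± 0.21 at ZT14 (2.83-fold lower). As for Cwc22, no array stood apart. The vancomycin ZT2 and saline ZT14 arrays were high and the other two low, with a gap of 1.499 between the pairs. Adm2 was higher at ZT14 than at ZT2 by 1.78 in saline mice, and differed by -2.42 in vancomycin mice. With normexp background correction the Adm2 differences were smaller, 2.04 and -1.14, and still past 2-fold.

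Pik3c2g was the gene with a single low array, vancomycin at ZT14. Its brightest probe read 782 and 1798 with saline and vancomycin at ZT2, and 1370 and 164 at ZT14. The difference was 1.20 ± 0.20 at ZT2 (2.30-fold higher) and -3.06 ± 0.21 at ZT14 (8.36-fold lower). The vancomycin ZT14 array lay 2.25 below the nearest other array (4.77-fold), against a range of 1.20 over the other 3. The overlapping probe read 524, 1162, 975 and 109, with differences of 1.15 and -3.16. The upstream probe read 187, 337, 355 and 128, and its differences of 0.85 and -1.47 had the same signs but did not reach 2-fold at ZT2. The remaining 2 Pik3c2g probes were not well above background on any array.

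Cdk14 had a single low array as well, here saline at ZT2. The probe at chr5:4805854-4805913 on the minus strand read 27.4 and 329 at ZT2, and 303 and 138 at ZT14, with saline first. The difference was 3.59 ± 0.25 at ZT2 (12.03-fold higher) and -1.14 ± 0.21 at ZT14 (2.20-fold lower). The saline ZT2 array lay 2.33 below the nearest other array (5.04-fold), against a range of 1.25 over the other 3. Of the other 5 Cdk14 probes, 4 were not well above background on any array. The fifth, A_52_P309211, was not well above background with saline at ZT2 (8.08, against 20.2 with vancomycin), and was at least 1.80-fold higher with vancomycin. At ZT14 it read 11.5 and 14.3, a difference of 0.31, opposite in sign to the brightest probe. The opposite change of Cdk14 thus rests on 1 probe. Its ZT2 difference was 2.06 with normexp background correction, 2.25 with a pseudocount of 50 and 2.45 with the mean over probes. At ZT14 Cdk14 was under 2-fold in these settings, with -0.81, -0.92 and -0.41.

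Elmo1 was read by a probe of an Ensembl transcript that gave 15.8 and 38.03 at ZT2, and 106 and 33.3 at ZT14. The difference was 1.27 ± 0.35 at ZT2 (2.41-fold higher) and -1.67 ± 0.25 at ZT14 (3.18-fold lower). The saline ZT14 array was high and lay 1.47 above the nearest other array (2.78-fold), against a range of 1.27 over the other 3. The saline ZT2 array was lowest. The probes of the RefSeq messenger RNAs were too dim to read this pattern. A_52_P488572 was well above background on 0 arrays. A_52_P613688 and A_66_P103632 were so only on the saline ZT14 array, with 14.5 and 13.8, which is also the high array of the brightest probe. Against vancomycin at ZT14 these were at least 1.19-fold and at least 1.13-fold higher. The remaining probe, A_55_P2716336, was well above background only with saline at ZT2 (16.4), at least 1.24-fold lower with vancomycin, which is the direction opposite to the brightest probe. The mean over the 4 Elmo1 probes that passed the background filter differed by -0.19 at ZT2, so the sign of Elmo1 at that time turns with the choice of probe. On the brightest probe the differences were 0.43 and -0.81 with normexp background correction and 0.48 and -0.93 with a pseudocount of 50, all under 2-fold. At ZT14 the mean over probes differed by -0.94.

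Atp1a4 was higher with vancomycin at ZT2 and lower at ZT14 by nearly the same factor. Its only probe, at chr1:174153644-174153703 on the minus strand, read 35.4 and 110 at ZT2, and 198 and 62.8 at ZT14. The difference was 1.64 ± 0.24 at ZT2 (3.11-fold higher) and -1.66 ± 0.22 at ZT14 (3.16-fold lower). No array stood apart. The saline arrays were lowest at ZT2 and highest at ZT14, which is a difference of 2.49 between the saline mice, against -0.81 between the vancomycin mice. The Atp1a4 differences were 0.85 and -0.98 with normexp background correction, both under 2-fold, and 0.92 and -1.17 with a pseudocount of 50.

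Naaladl2 was lower with vancomycin at ZT2 and higher at ZT14. Its brightest probe read 264 and 17.7 at ZT2, and 89.2 and 196 at ZT14. The difference was -3.90 ± 0.30 at ZT2 (14.9-fold lower) and 1.13 ± 0.21 at ZT14 (2.20-fold higher). The vancomycin ZT2 array lay 2.33 below the nearest other array (5.04-fold), against a range of 1.57 over the other 3. The other Naaladl2 probe read 18.0, 24.7, 16.3 and 18.9, well above background on all 4 arrays. Its differences were 0.46 ± 0.35 and 0.21 ± 0.35, so it had the opposite sign at ZT2 and stayed within 2-fold at both times. For Naaladl2 the ZT2 difference shrank to -2.02 with normexp background correction, -2.05 with a pseudocount of 50 and -1.72 with the mean over probes. At ZT14 it was 0.86, 0.86 and 0.67 in these settings, under 2-fold in each.

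Rnf39 had a single high array, saline at ZT14, as Elmo1 had. Its only probe, at chr17:37084871-37084930 on the plus strand, read 17.6 and 53.1 at ZT2, and 185 and 34.7 at ZT14. The difference was 1.59 ± 0.31 at ZT2 (3.02-fold higher) and -2.41 ± 0.24 at ZT14 (5.33-fold lower). The saline ZT14 array lay 1.80 above the nearest other array (3.49-fold), against a range of 1.59 over the other 3. Between the saline mice Rnf39 differed by 3.40, and between the vancomycin mice by -0.61. With normexp background correction the Rnf39 differences were 0.58 and -1.36, and with a pseudocount of 50 they were 0.65 and -1.52, so ZT2 was under 2-fold in both.

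**Figure D2:**
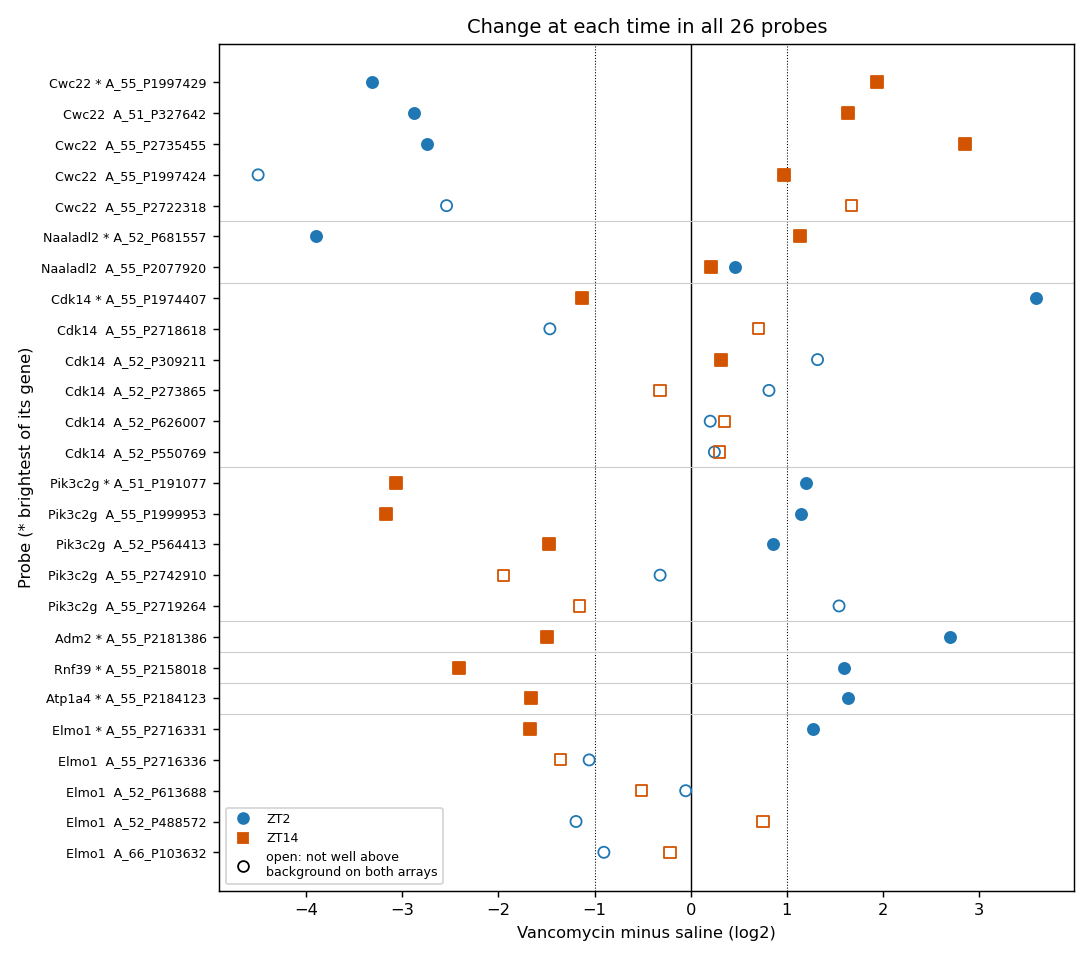
Vancomycin minus saline (log2) at ZT2 (circles) and ZT14 (squares) for all 26 probes of the 8 genes, with dotted lines at 2-fold and open symbols where the probe was not well above background on both arrays of that time. The Cwc22 probes lie on the same sides throughout, whereas the other probe of Naaladl2 at ZT2 and the measured one of Cdk14 at ZT14 lie on the side opposite to their brightest probe.

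The probe plot shows how far probes agreed within a gene. Of the 26 probes, 13 were well above background on all 4 arrays and 7 on none. The opposite 2-fold change was read by 11 probes, 3 of them for Cwc22, 2 for Pik3c2g and 1 for each other gene. Probes other than the brightest gave 12 measured differences in all, and 10 of these had the sign of the brightest probe (4 of 5 at ZT2 and 6 of 7 at ZT14). Those with the same sign came from Cwc22 (2 at ZT2 and 3 at ZT14), from Pik3c2g (2 at each time, in part from the overlapping probe) and from Naaladl2 at ZT14. The last was 0.21 ± 0.35, within its scanner error. The exceptions were Naaladl2 at ZT2 and Cdk14 at ZT14. Elmo1 gave no such difference. Only Cwc22 and Pik3c2g had more than 1 probe past the limit, and Adm2, Rnf39 and Atp1a4 have no other probe on the array.

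An array was said to stand apart when its gap to the nearest other array exceeded the range of the other 3. This held for 5 of the 8 genes: vancomycin ZT2 for Naaladl2, saline ZT2 for Cdk14, vancomycin ZT14 for Pik3c2g, and saline ZT14 for Rnf39 and Elmo1. Over all 20759 genes an array stood apart for 40%, with 10.1% for saline ZT2, 11.9% for vancomycin ZT2, 8.85% for saline ZT14 and 9.12% for vancomycin ZT14. The rule that chose the genes bears on this measure, and nothing is read from the count. Each of the 4 arrays was thus the odd one for at least 1 of the genes, treated or not. The gap was more than 2-fold in all 5, and such a gap for any array occurred in 2.35% of all genes. Of the 46 genes with opposite changes, 33 had no array apart, 5 had saline ZT14, 4 vancomycin ZT14, 3 saline ZT2 and 1 vancomycin ZT2. That 1 gene was Naaladl2.

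For Cwc22, Adm2 and Atp1a4 no array stood apart, and in each of them saline ZT2 lay within 2-fold of vancomycin ZT14 and vancomycin ZT2 within 2-fold of saline ZT14. The arrays of Cwc22 and Adm2 formed pairs across treatment and time, with the widest gap between the pairs (1.94 and 1.499). Those of Atp1a4 were evenly spaced, with gaps of 0.83, 0.81 and 0.85 from the lowest array to the highest. Over the 8 genes, 5 were within 2-fold in each of these 2 pairs, against 88.4% and 87.5% of all genes. Between the saline arrays 1 of the 8 was within 2-fold (Pik3c2g), against 90.2% of all genes, and between the vancomycin arrays 3 were (Rnf39, Atp1a4 and Elmo1), against 88.9%. The rule required 0 of 8 within 2-fold between saline and vancomycin of the same time. Across genes, which are not independent replicates, Pearson's r was 0.972 to 0.977 between arrays of different slides and 0.986 and 0.990 between arrays of the same slide.

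In saline mice alone, ZT14 minus ZT2 was -2.46 for Cwc22 and -1.57 for Naaladl2, and it lay between 0.81 (Pik3c2g) and 3.47 (Cdk14) for the others. For 7 of the 8 genes, all but Pik3c2g, the saline arrays differed by more than 2-fold, against 9.81% of all genes in that comparison (7.02% higher and 2.79% lower at ZT14). In vancomycin mice the differences were 2.80 for Cwc22 and 3.47 for Naaladl2, and -3.45 for Pik3c2g, -2.42 for Adm2, -1.25 for Cdk14, -0.81 for Atp1a4, -0.61 for Rnf39 and -0.19 for Elmo1. Of the 8 genes 5 passed 2-fold there, against 11.1% of all genes (8.32% higher and 2.75% lower at ZT14). These comparisons share arrays with those that chose the genes, and slide cannot be told apart from time in them. The rule also made each gene differ by 2-fold or more in saline mice, in vancomycin mice or in both. Nothing is therefore read from these counts.

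**Figure D3:**
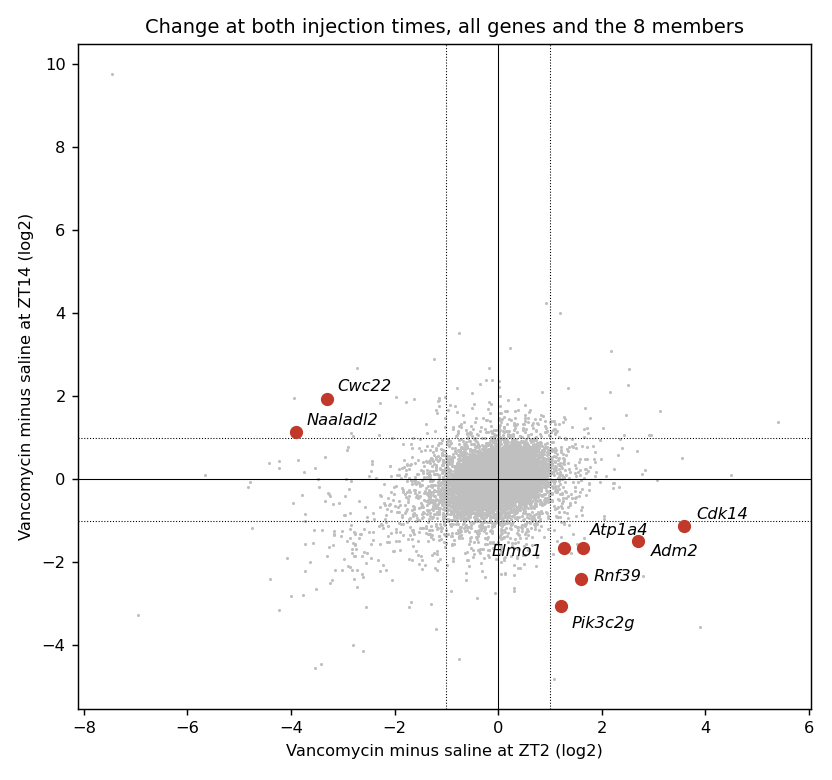
Vancomycin minus saline (log2) at ZT2 (x axis) and ZT14 (y axis) for the 20759 genes well above background on all 4 arrays (grey) and the 8 chosen genes (red), with dotted lines at 2-fold. Cwc22 and Naaladl2 lie in the upper left corner and the other 6 in the lower right corner, where the rule placed them.

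At ZT2, 898 genes (4.33%) differed by more than 2-fold in either direction, and at ZT14 687 (3.31%). The plot of both times shows the 8 genes against these. In the same direction at both times, 213 genes (1.03%) passed 2-fold. Ranked by the smaller of the 2 changes, the 8 genes held places 7 (Cwc22), 10 (Atp1a4), 12 (Rnf39), 14 (Adm2), 19 (Elmo1), 22 (Pik3c2g), 30 (Cdk14) and 31 (Naaladl2) of 46. Just inside the limit were Adam22, with 1.27 at ZT2 and -1.02 at ZT14, and the complement gene C4b, with -1.02 and 1.46. Just outside were Ly6d, with -1.64 and 0.99, and the transferrin receptor Tfrc, with -0.97 and 0.98. With normexp background correction 16 genes passed, and with a pseudocount of 50 added to the signals 18 passed. In both cases 3 of the 8 were among them, Cwc22, Pik3c2g and Adm2.

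Around the spot of each brightest probe on the slide, the 61 to 99 spots within 6 rows and columns had a median difference of -0.07 to 0.08 at ZT2 and of -0.02 to 0.09 at ZT14. No such neighbourhood moved with its gene in these signals. The signals had already been detrended within each array, so these medians cannot tell if an area of the slide had drifted. A fault of the single spot was not tested.

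Profiles over the 4 arrays were compared by Euclidean distance of centred log2 values, with 14073 genes of ordinary symbol as candidates. This is a description over 4 arrays. Cwc22 was nearest to Naaladl2 (1.05), where a flat profile would lie at 2.72. Both were chosen for the same order of changes, so their closeness follows in part from the rule. Rad51b, a gene of homologous recombination, lay at 1.30 from Cwc22 and differed by -2.43 at ZT2 and 0.36 at ZT14, so it lacked the change at ZT14. Naaladl2 was next nearest to Alas2 (1.22), the heme synthesis enzyme of red cell precursors, which differed by -2.45 at ZT2 and 0.19 at ZT14. Pik3c2g was nearest to Dhrs9 (0.961), a retinol dehydrogenase, which differed by 0.30 and -2.62, then to Plcl2 (1.00; 0.13 and -2.27) and the MHC class II gene H2-Aa (1.08; 0.13 and -2.28). These 3 genes were low on the vancomycin ZT14 array but lacked the change at ZT2.

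Adm2 was nearest to the pseudogene Cyp2d37-ps (0.744), which differed by 2.05 and -0.89. Next came Aldh1a1 (0.845), a retinaldehyde dehydrogenase with 1.53 and -1.57, and Ceacam2 (0.904), with 1.44 and -1.33. Aldh1a1 and Ceacam2 thus also passed the opposite 2-fold limits. Cdk14 was nearest to the liver glycogen synthase gene Gys2 (1.24), which read 396, 1999, 1389 and 1224 and was low with saline at ZT2 only, with H2-T9 (1.25) and Dio3os (1.30) next. Rnf39, Atp1a4 and Elmo1, chosen for the same order of changes, lay close to each other. Elmo1 was at 0.589 from Rnf39 and 0.509 from Atp1a4, and Atp1a4 at 0.771 from Rnf39. All of them were highest on the saline ZT14 array and lowest on the saline ZT2 array. Gabra2, a GABA receptor subunit, was the nearest gene to Elmo1 (0.469), with 0.75 and -1.88.

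The nearest measured genes on the chromosome were compared with each gene by probe position. Zfp385b and Ube2e3, on either side of Cwc22, differed by -0.32 and 0.12 at ZT2 and by -0.65 and 0.23 at ZT14. Fzd1, a Wnt receptor gene 51.9 kb from the Cdk14 probe, differed by -0.28 and 0.49. Miox, an inositol oxygenase of the proximal tubule 12.3 kb from the Adm2 probe, differed by 0.16 and -0.21, and Ppp1r11, 1.37 kb from the Rnf39 probe, by -0.09 and -0.12. None of these shared the change of its neighbour. Sfrp4, a secreted Wnt modulator 631 kb from the Elmo1 probe, passed 2-fold with -3.26 at ZT2 and differed by -0.36 at ZT14. At ZT2 it was opposite in sign to Elmo1.

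**Figure D4:**
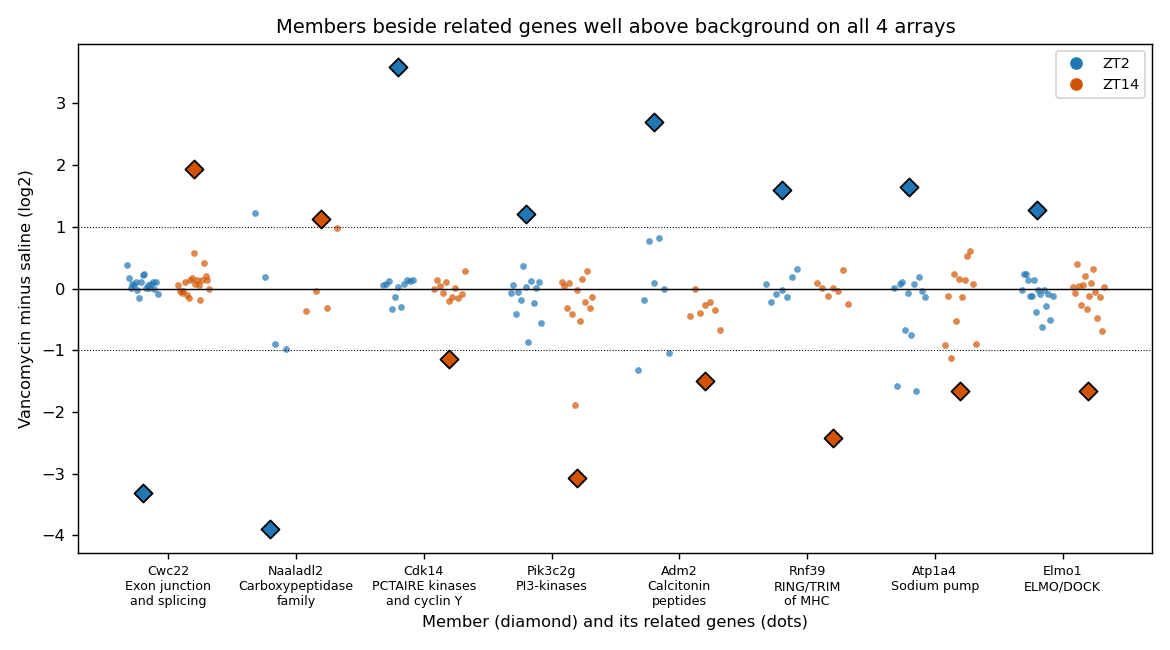
Vancomycin minus saline (log2) at ZT2 (blue) and ZT14 (orange) for each of the 8 genes (diamonds) and for the genes of its pathway list that were well above background on all 4 arrays (dots), with dotted lines at 2-fold. Most dots lie within 2-fold at both times, and no dot passes 2-fold in opposite directions.

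Relatives and partners of the 8 genes were read in 8 pathway lists with 104 genes, of which 99 were measured and 89 were well above background on all 4 arrays. Of the 89, 1 was more than 2-fold higher and 4 lower at ZT2, and 0 higher and 2 lower at ZT14, against 1.32%, 3%, 1.09% and 2.22% of all genes. None passed 2-fold in opposite directions (0.222% of all genes did). The median difference was 0.01 at ZT2 and -0.02 at ZT14, against 0.00 and 0.01 over all genes. Over both times, limma with treatment and injection time as terms called 0 of the 99 and 0 of 24638 genes at an adjusted p under 0.05, with 1 residual degree of freedom. At an unadjusted p under 0.05 it gave 0 higher and 6 lower among the 99, and 790 higher and 1317 lower over all genes. The smallest adjusted p by limma among the 99 was 0.52.

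All 19 splicing and exon junction genes of the Cwc22 list were within 2-fold at both times. Eif4a3, the exon junction helicase that Cwc22 binds, differed by -0.15 and 0.15, and the decay helicase Upf1 by 0.07 and 0.14. In the calcitonin list of Adm2, Adm, which encodes adrenomedullin, differed by -1.33 at ZT2 and -0.44 at ZT14, and the receptor partner Ramp3 by -1.05 and -0.67. Both were lower at ZT2, where Adm2 was higher. Iapp was well above background on both saline arrays only.

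In the list of phosphoinositide 3-kinases, the catalytic subunit gene Pik3ca read 612, 790, 9071 and 2445. It differed by 0.37 at ZT2 and -1.89 at ZT14, and its saline ZT14 array was the high one, whereas for Pik3c2g the vancomycin ZT14 array was low. Pik3c2a, of the same class as Pik3c2g, differed by -0.05 and 0.10. None of the 11 genes of the Cdk14 list that were well above background on all arrays passed 2-fold, with -0.33 and -0.07 for the related kinase Cdk16 and 0.07 and 0.14 for the cyclin Ccny.

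In the sodium pump list of Atp1a4, Fxyd3, a regulator of the pump, differed by -1.66 at ZT2 and 0.53 at ZT14. Of the Naaladl2 list, Folh1, which encodes glutamate carboxypeptidase II, differed by 1.23 and -0.36, opposite in sign to Naaladl2. Tfrc, of the same list, differed by -0.97 and 0.98, with the signs of Naaladl2 and just under 2-fold at both times. In the Rnf39 list Trim40, encoded in the same region, was well above background on the ZT14 arrays only, with 76.5 for saline and 23.8 for vancomycin, a difference of -1.69. No gene of the Elmo1 list that was well above background on all 4 arrays passed 2-fold, with -0.37 and -0.33 for Elmo2 and 0.14 and 0.04 for Dock1.

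Markers of other cell types moved between the arrays, and their part in the changes of the 8 genes was not tested. Sums of scaled intensity are given in the array order above, and counts and medians are over markers well above background on all 4 arrays. Over all genes, 3% were lower and 1.32% higher past 2-fold at ZT2, and 2.22% lower and 1.09% higher at ZT14. The erythroid markers summed to 19879, 6537, 20335 and 25146, mostly from Hba-a1, lowest on the vancomycin ZT2 array and highest on the vancomycin ZT14 array. Naaladl2 and Cwc22 were lowest on the vancomycin ZT2 array too, but highest with saline at ZT2. The smooth muscle and stroma, lymphocyte and skeletal muscle sums were also lowest on that vancomycin ZT2 array. Of 5 erythroid markers 3 were lower past 2-fold at ZT2 (Hba-a1, Hbb-b1 and Alas2) and 1, Klf1, was higher by 2.78. The smooth muscle and stroma markers summed to 49561, 16434, 23348 and 21891, with 6 of 7 lower past 2-fold at ZT2. The adrenal markers, 5 of 10 well above background on all arrays, summed to 397, 3809, 426 and 775, highest with vancomycin at ZT2. Of these 5, 3 were higher past 2-fold at ZT2 and 2 at ZT14. Adm2, Cdk14 and Pik3c2g were highest with vancomycin at ZT2 too, but Cdk14 only by little (329, against 303 with saline at ZT14). At ZT14 Adm2, Cdk14 and Pik3c2g were lower with vancomycin, whereas the adrenal sum was higher.

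The macrophage markers summed to 11794, 11586, 12969 and 10321, and Csf1r held much of that sum. The single markers were mostly lower with vancomycin: 7 of 8 at ZT2, all but Csf1r (0.43), and 8 of 8 at ZT14, with medians of -0.47 and -0.52 and 0 past 2-fold. The lymphocyte markers summed to 852, 527, 1171 and 812, with medians of -0.79 and -0.94 and 2 of 6 lower past 2-fold at ZT2 and 1 at ZT14. The adipose markers, 5 of 9 well above background on all arrays, summed to 25100, 12000, 5373 and 6279, mostly from Fabp4 and Cfd. Of these 5, 2 were lower past 2-fold at ZT2 (Cidec and Cfd) and 1, Cidea, was higher by 1.58. Ucp1, a marker of brown fat, was well above background on the vancomycin ZT2 array only (205). The skeletal muscle markers summed to 368, 241.3, 452 and 291, with 1 of 5 lower past 2-fold at each time. Of 7 testis germ cell markers 4 were measured, and they summed to 253, 349, 780 and 954, nearly all from Prm1 (167, 297, 696 and 907). Tnp1, the other testis marker well above background on all arrays, differed by -1.73 and -1.92, and Ldhc, Pgk2 and Akap4 were not well above background on any array. The Y-linked genes Ddx3y, Eif2s3y, Kdm5d and Uty were well above background on all 4 arrays and Xist on 0.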

How the data were processed

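Total RNA of mouse kidney was labelled with Cy3 and hybridized to Agilent arrays, 1 per group. Spots were quantified with Feature Extraction from Agilent. The file headers name its version 10.7.1.1, and the submitters' processing notes 9.5.1.1. The deposited processed intensity of each spot is background-subtracted and detrended within the array, per the file headers. A further table from the authors holds a deposited intensity for each probe, with the same median of 35.2 in all columns, so it was normalized between arrays. Its columns were mapped here as quantile normalized, and the other steps are not given in the sources used here. For Cwc22 at ZT2 these intensities gave -3.27, as did the separate quantile normalization. The deposited intensities were used only as an alternative.

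From each log2 processed signal the 75th percentile of its array (490.8 to 678.1 before logs) was subtracted. Spots with outlier flags (66 to 86 per array) were left out, and replicate spots were averaged. A probe passed when, on any array, 50% or more of its spots exceeded background clearly, and the brightest such probe stood for a gene. Arrays have no read depth, and their number limits the precision. limma 3.58.1 in R 4.3.3 fitted treatment and injection time to 24638 genes with Benjamini-Hochberg adjustment. The limma p-values concern the mean change over both times. With a single array per group, their error came from how far the changes at the 2 times differed, moderated over all genes. That error does not measure the spread between animals.

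The genes and lists were chosen with earlier results of these data known. Named genes were the 8 chosen genes, those nearest the 2-fold limit, the 3 nearest profiles of each, the nearest measured genes on each side, and in each list up to 4 genes past 2-fold or, failing that, the 2 closest relatives. Some genes that this rule names are not reported here. Gene names were taken from the array files. Alternatives covered centring, quantile normalization, background correction, a pseudocount, filters, flags, probe choice, the fold limit and the fit.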

Additional observations from a re-analysis of the deposited data

Results flagged for a closer look

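All 8 genes were flagged because the vancomycin and saline arrays moved in opposite directions at the 2 injection times. They were chosen for this, and the difference was not tested, since 1 array per group leaves no spread to test it against. The change at ZT14 minus the change at ZT2 was 5.26 for Cwc22 and 5.04 for Naaladl2 on the log2 scale. It was -4.72 for Cdk14, -4.27 for Pik3c2g, -4.20 for Adm2, -4.01 for Rnf39, -3.30 for Atp1a4 and -2.94 for Elmo1.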

How the results depend on the processing

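The 8 genes gave 144 values under the alternatives other than the fold limit and the fit. Of these, 109 moved by less than the scanner error or not at all, 34 moved by more and 1 changed sign. The sign change was Elmo1 at ZT2 with the mean over probes (-0.19). The 109 include 16 values each from the stricter background filter, from no such filter and from keeping flagged spots. These settings left the brightest probes as they were, so the values were identical. With normexp background correction 14 values moved by more than the scanner error and 2 did not, and likewise with a pseudocount of 50. With normexp background correction 5 of the 8 passed 2-fold at ZT2 and 4 at ZT14, and over all genes 402 and 332 passed, 16 of them in opposite directions. With a pseudocount of 50 these numbers were 5, 5, 428, 358 and 18. Under both, Naaladl2 no longer had an array apart. With the mean over probes 5 passed at ZT14, and of 54 genes with opposite changes 5 were among the 8. These were Cwc22, Pik3c2g, Adm2, Rnf39 and Atp1a4. The last 3 have 1 probe each, so averaging could not change them. A limit of 1.5-fold gave 221 genes with opposite changes, all 8 among them, and a limit of 4-fold gave 4, with 0 of the 8. Without the filter on dim probes 24 of 36 differences of the other probes had the sign of the brightest. limma called 0 genes of the pathway lists in every setting. Leaving out an array leaves the fit no residual degrees of freedom, so no such value was computed. No paired analysis was possible because no group has a second replicate to number. The limma fit with injection time as a term already compares saline with vancomycin within each time and slide.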
